A study of Mus musculus with 11 samples.

Results

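Heterotrimeric G protein subunits and RGS proteins, which shorten G protein signals, were followed at the RNA level in 11 end-point skin tumours of mouse melanoma models. The genes were taken by symbol alone: the Gna, Gnb and Gng genes that name an alpha, beta or gamma subunit, and the Rgs genes that carry a number, leaving out Gnb1l and Gnb2l1. This gave 49 of the 18756 mouse genes in the deposited table: 15 G alpha, 5 G beta and 9 G gamma genes, and 20 RGS genes. The last group includes Rgs7bp and Rgs9bp, which encode membrane anchors for RGS proteins and hold no RGS domain. The 47 genes that passed the expression filter were tested in the fit over all 17350 genes. Gnat1 and Rgs6 were not.

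The tumours came from C57BL/6 mice of 3 genotypes. There were 5 libraries of GNA11 Q209L Bap1 KO tumours, 2 of GNA11 Q209L and 4 of BRAF V600E Bap1 KO tumours, so that the first and the third share a Bap1 knockout and the first and the second share the oncogene. GNA11 Q209L is an activating change of a G alpha subunit known from uveal melanoma. BRAF V600E activates a kinase and is known from melanoma of the skin. Bap1 encodes a deubiquitinase of the nucleus. The labels give no driver line, age, sex, litter or batch, and do not say if the tumours of a genotype came from separate animals. P-values therefore measure the spread between these libraries. Titles of GNA11 Q209L Bap1 KO replicates 1 and 2 share an identifier.

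The gene-level count of Bap1 did not show the labelled knockout, at 102 to 170 CPM in GNA11 Q209L Bap1 KO tumours, 85.1 and 137 CPM in GNA11 Q209L and 54.5 to 71.3 CPM in BRAF V600E Bap1 KO tumours. CPM is the count relative to the library's TMM-scaled total. Which exons were removed was not stated in the sources. A human BRAF sequence stood at 0.865 to 2.76 CPM in BRAF V600E Bap1 KO tumours and at no more than 0.0543 CPM in the other libraries. Entries at the foot of the deposited table give NA for Bap1 in BRAF V600E Bap1 KO replicates 2 and 4, against the label. Counts per library, rounded, ran from 18338100 to 81035100, and the 49 genes took between 0.2343% and 0.413% of them. The summed level of 8 melanocyte markers was 76441 to 100053 CPM in GNA11 Q209L Bap1 KO tumours, 65938 and 68130 CPM in GNA11 Q209L, and 48.8 to 187 CPM in BRAF V600E Bap1 KO tumours. None of the 8 was at 0 in every BRAF V600E Bap1 KO library. BRAF V600E Bap1 KO replicate 4 also held 173918 CPM of 6 salivary gland markers and 4585 CPM of 5 skeletal muscle markers. Fibroblast markers summed to 286 to 2189 CPM in GNA11 Q209L Bap1 KO tumours, 11145 and 2833 CPM in GNA11 Q209L, and 3078 to 18157 CPM in BRAF V600E Bap1 KO tumours, and 6 of 6 were lower in GNA11 Q209L Bap1 KO tumours than in BRAF V600E Bap1 KO tumours. Mast cell markers summed to 0.311 to 1.57 CPM in GNA11 Q209L Bap1 KO tumours, 1.47 and 0.312 CPM in GNA11 Q209L, and 57.3 to 299 CPM in BRAF V600E Bap1 KO tumours, and 4 of 4 were lower in GNA11 Q209L Bap1 KO tumours than in BRAF V600E Bap1 KO tumours. Keratinocyte markers summed to 0.674 to 1535 CPM in GNA11 Q209L Bap1 KO tumours, 5.36 and 0.981 CPM in GNA11 Q209L, and 126 to 12502 CPM in BRAF V600E Bap1 KO tumours, with 2 of 6 lower in GNA11 Q209L Bap1 KO tumours than in BRAF V600E Bap1 KO tumours. The part of these cell types in the results was not tested. BRAF V600E Bap1 KO libraries fell into pairs on 5 Schwann cell markers, with 12.3 and 31.4 CPM in replicates 1 and 2 against 1813 and 853 CPM in replicates 3 and 4. These markers summed to 1122 to 2162 CPM in GNA11 Q209L Bap1 KO tumours, and 742 and 1549 CPM in GNA11 Q209L. The same pairs held 3411 and 3078 against 18157 and 11547 CPM of fibroblast markers. They held 126 and 258 against 12502 and 3346 CPM of keratinocyte markers. In bulk tumours fewer cells of a type and less RNA per cell cannot be told apart.

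A heterotrimeric G protein is switched on by a receptor, which makes the alpha subunit trade GDP for GTP and release the beta-gamma dimer. Alpha and beta-gamma then act on effectors: the Gq family on phospholipase C beta, Gs on adenylyl cyclase to raise cyclic AMP, and Gi against it. The signal ends when the alpha subunit hydrolyses GTP, which RGS proteins speed up. A glutamine in the alpha subunit is needed for that hydrolysis, and its replacement by leucine in GNA11 or GNAQ locks the protein on. In normal melanocytes, Gq and G11 act downstream of the endothelin receptor and Gs acts downstream of the melanocortin receptor.

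The codon that the GNA11 allele changes is shown for the alpha genes on which the results turn, so that the position of the oncogenic change can be seen in each family member. Each line gives 27 bases of the mouse coding sequence, 5′ to 3′, from GENCODE transcripts, with the codon of the catalytic glutamine in capitals. Codons are counted from 1 at the start codon. In Gna11 (chromosome 10) and in Gnaq (chromosome 19) it is the codon that the allele's name gives. It is codon 205 in Gna14 (chromosome 19) and Gnai2 (chromosome 9), codon 212 in Gna15 (chromosome 10), codon 204 in Gnai1 (chromosome 5), and codon 227 in the Gnas transcript used (chromosome 2).
Gna11: gatgtgggcgggCAGaggtcagagcgc
Gnaq: gatgtagggggcCAAaggtcagagaga
Gna14: gatgttggtggcCAGcgatctgaacga
Gna15: gatgttggtggcCAGaggtcagagcgt
Gnai1: gacgtgggaggtCAGaggtcagagcgg
Gnai2: gatgtgggtggtCAGcggtctgagcgc
Gnas: gatgtgggcggcCAGcgcgatgagcgc
Gna15 and Gnai1 each match Gna11 at 23 of 27 bases, as does Gnai2, while Gnaq and Gnas match at 21 and Gna14 at 19. All of these but Gnaq use CAG for the glutamine, where Gnaq uses CAA. The deposited table holds counts per gene, so the base at this codon was not read.

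The promoters of Gnb5 and Gng7 are shown because these beta and gamma genes stood higher in both GNA11 Q209L genotypes than in BRAF V600E Bap1 KO tumours, with the largest folds among the higher members. Each line is the RefSeq sequence (GRCm38.p6) from 250 bases before to 50 bases after the gene's start, on the gene's own strand. The Gnb5 window is chr9:75306038-75306337 (+), and the Gng7 window is chr10:81001316-81001615 (-), which is among the starts that RefSeq lists for Gng7. Capitals mark matches to CACGTG and CATGTG, the E-box forms that the melanocyte factor MITF is known to bind.
Gnb5: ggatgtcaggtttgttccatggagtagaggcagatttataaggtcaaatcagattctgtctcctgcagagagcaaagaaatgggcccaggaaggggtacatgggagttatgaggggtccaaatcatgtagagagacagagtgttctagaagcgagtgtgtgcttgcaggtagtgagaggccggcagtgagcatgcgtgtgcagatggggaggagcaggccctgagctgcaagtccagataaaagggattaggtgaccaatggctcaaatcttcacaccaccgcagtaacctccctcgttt
Gng7: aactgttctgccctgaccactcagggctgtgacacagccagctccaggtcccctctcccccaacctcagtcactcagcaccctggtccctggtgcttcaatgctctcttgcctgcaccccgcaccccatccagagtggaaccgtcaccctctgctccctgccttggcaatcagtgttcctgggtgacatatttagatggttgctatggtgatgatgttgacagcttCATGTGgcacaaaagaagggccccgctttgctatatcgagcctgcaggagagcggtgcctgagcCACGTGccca
The Gng7 window shown holds CACGTG and CATGTG, and the Gnb5 window holds neither on either strand. The other window listed for Gng7, chr10:81014876-81015175 (-), holds neither. CACGTG was present in 7.15% and CATGTG, read on both strands, in 14.2% of 32851 RefSeq promoters of the same length. Among the 48 promoters listed for 36 of the 49 genes, CACGTG was present in 6 and CATGTG in 5. The AP-1 site TGACTCA was present in 2 of the 48, in Rgs12 and Rgs17, and in 5.2% of all promoters. A match is a description of the letters in the window. CACGTG was also present in the promoter of Gnai1, which was lower in GNA11 Q209L Bap1 KO tumours than in BRAF V600E Bap1 KO tumours.

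The genotypes labelled Bap1 knockout differ in their oncogene, and GNA11 Q209L Bap1 KO tumours were set against BRAF V600E Bap1 KO tumours. These tumours also differed in melanocyte markers, at 76441 to 100053 CPM against 48.8 to 187 CPM in sum. Oncogene and tissue content cannot be told apart in this comparison, and the part of each was not tested. Of the 47 genes tested, 9 were higher and 13 lower in GNA11 Q209L Bap1 KO tumours at an adjusted p under 0.05, where 41.2% of all genes passed, 16.5% higher and 24.7% lower. The groups did not overlap in 9 higher and 9 lower members, against 31.8% of all genes without overlap, 14.7% higher and 17.1% lower. The median log2 fold change was -0.08 over the members and -0.26 over all genes tested. The split by class was 4 higher and 3 lower of 14 G alpha genes, 3 higher and 0 lower of 5 G beta genes, 1 higher and 2 lower of 9 G gamma genes, and 1 higher and 8 lower of 19 RGS genes. Leaving out BRAF V600E Bap1 KO replicates 2 and 4 together, an alternative chosen after the data were seen, left 2 members higher and 10 lower. Over all genes that fit called 3571 of 16254, against 7146 of 17350 in the main fit.

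GNA11 Q209L Bap1 KO tumours and GNA11 Q209L tumours differ in the Bap1 label, and edgeR called 0 of the 47 members between them. Of all genes 0.0288% were called, 0.00576% higher and 0.0231% lower. At an unadjusted p under 0.05 there were 8 members, where 11.4% of all genes had such a p. The groups did not overlap in 5 higher and 4 lower members, against 16.6% of all genes, 7.57% higher and 9.01% lower. DESeq2 called Rgs11 higher and Gng2 and Rgs7bp lower, and edgeR fitted to these genotypes alone called Rgs7bp lower. Over all genes DESeq2 called 452 of 18742 and that edgeR fit 64 of 15177. The level of Xist, an RNA made from the inactive X chromosome, passed 50 CPM in 1 of 5 GNA11 Q209L Bap1 KO tumours and in both of GNA11 Q209L. With that split as a covariate 0 members passed in this comparison. GNA11 Q209L and BRAF V600E Bap1 KO tumours differ in oncogene and Bap1 label together, and in melanocyte markers, as given above. Gng7, Gnb5 and Rgs3 were higher and Rgs20 was lower in GNA11 Q209L, 4 of 47 members where 15.2% of all genes passed, 9.27% higher and 5.93% lower. Fits without GNA11 Q209L replicate 1 or replicate 2 leave a lone library of that genotype, and called fewer of all genes as well as fewer members. Log2 fold changes without replicate 1 and without replicate 2 were 3.82 and 2.8 for Gng7 and 1.14 and 1.61 for Rgs3. They were -3.89 and -5.44 for Rgs20, and that of Gnb5 was 2.09 without replicate 2. These comparisons share libraries, so their values are given side by side.

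**Figure D1:**
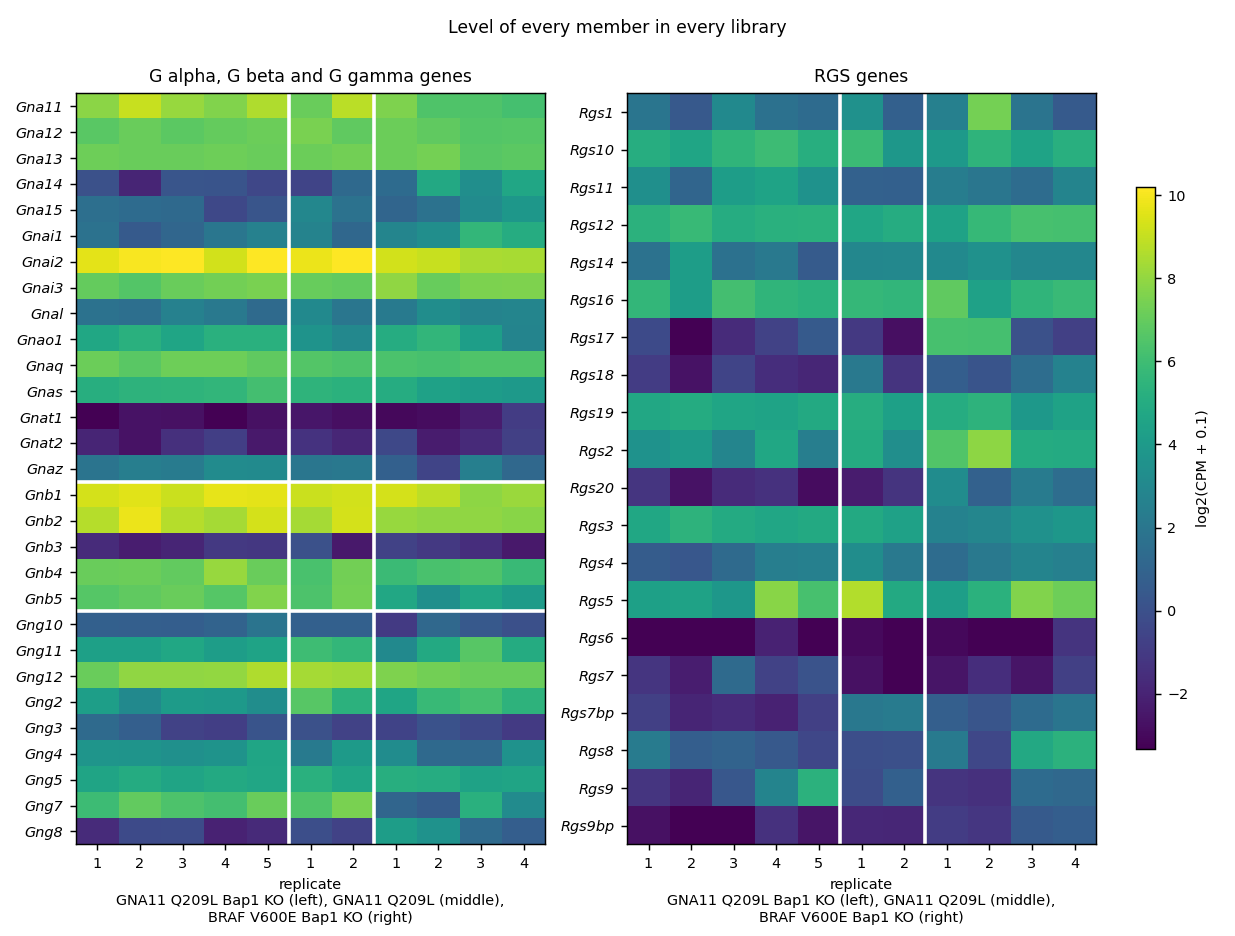
Level of the 49 genes in each of the 11 libraries, as log2(CPM + 0.1) by colour, with genes as rows and replicates as columns, GNA11 Q209L Bap1 KO left, GNA11 Q209L in the middle and BRAF V600E Bap1 KO tumours right, and G alpha, G beta and G gamma genes apart from RGS genes. Gnai2, Gnb1 and Gnb2 are bright in every library, while Gng7 and Gnb5 are brighter in the 7 GNA11 Q209L libraries and Rgs20 and Gna14 are brighter in BRAF V600E Bap1 KO tumours.

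Per kilobase of the longest coding transcript, a few genes carried most of the RNA of each subunit class. Which transcripts were expressed cannot be read from counts per gene, so the shares depend on this choice of length. Gnai2, an inhibitory alpha subunit, made up 63.5 ± 5.07% of summed G alpha CPM per kb in GNA11 Q209L Bap1 KO tumours (SD, n = 5), 67% in GNA11 Q209L and 52% in BRAF V600E Bap1 KO tumours. Among G beta genes, Gnb2 and Gnb1 made up 46.1% and 38.8% in GNA11 Q209L Bap1 KO tumours, 48.8% and 36.4% in GNA11 Q209L, and 48.5% and 43.6% in BRAF V600E Bap1 KO tumours. These are the common beta subunits of most tissues. Gnb5, the beta subunit that pairs with R7 RGS proteins, held 10.3 ± 2.72% of G beta CPM per kb in GNA11 Q209L Bap1 KO tumours, 11.1% in GNA11 Q209L and 3.49% in BRAF V600E Bap1 KO tumours. Gng12 was the leading gamma gene in both GNA11 Q209L genotypes, at 43.7% of G gamma CPM per kb in GNA11 Q209L Bap1 KO tumours, 35.1% in GNA11 Q209L and 32.1% in BRAF V600E Bap1 KO tumours. Gng7 held 20.6 ± 3.58% in GNA11 Q209L Bap1 KO tumours, 18.5% in GNA11 Q209L and 2.43% in BRAF V600E Bap1 KO tumours. Gng11 held 18.2% in GNA11 Q209L Bap1 KO tumours, 28.7% in GNA11 Q209L and 33.1% in BRAF V600E Bap1 KO tumours, where libraries ranged from 9.38 to 59.1%. Gng8 held 0.342% in GNA11 Q209L Bap1 KO tumours, 0.36% in GNA11 Q209L and 8.64% in BRAF V600E Bap1 KO tumours, where libraries ranged from 1.43 to 20%. Among RGS genes Rgs10 held 33.8% of CPM per kb in GNA11 Q209L Bap1 KO tumours, 24% in GNA11 Q209L and 18.7% in BRAF V600E Bap1 KO tumours.

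**Figure D2:**
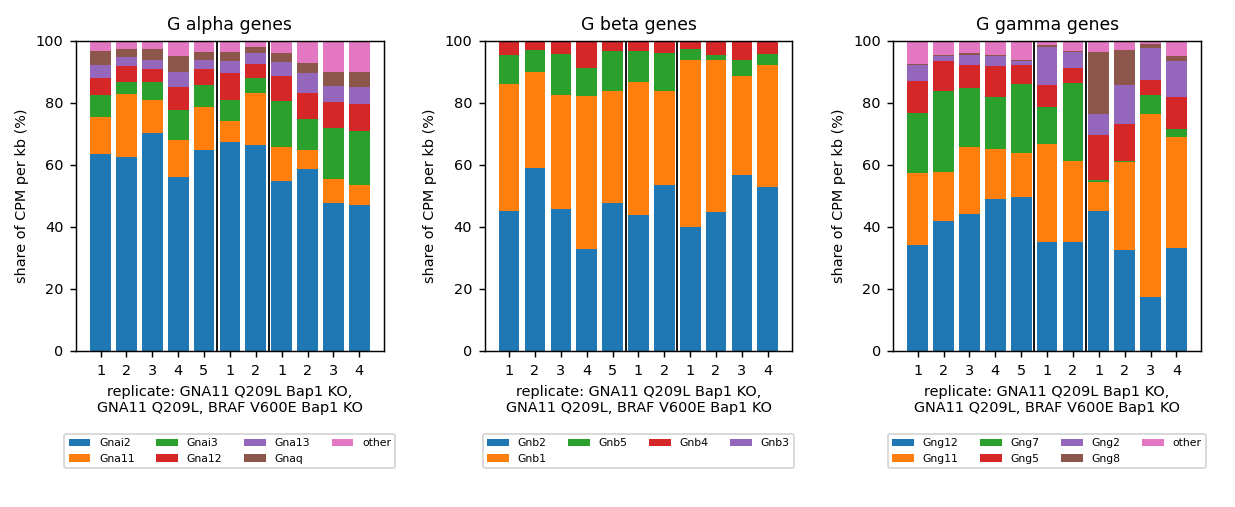
Stacked bars of the share (%) of CPM per kb of each class that each gene holds, for G alpha, G beta and G gamma genes, by replicate, with GNA11 Q209L Bap1 KO left, GNA11 Q209L in the middle and BRAF V600E Bap1 KO tumours right of the black lines. Gnai2 is the largest G alpha share in every library, and Gng7 holds a mean of 20.6% of the G gamma bar in GNA11 Q209L Bap1 KO tumours and 2.43% in BRAF V600E Bap1 KO tumours.

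The mouse gene of the oncogene, Gna11 (ENSMUSG00000034781), encodes G alpha 11 and had 230, 524, 272, 200 and 376 CPM in GNA11 Q209L Bap1 KO tumours. Levels were 138 and 441 CPM in GNA11 Q209L and 188, 88.4, 87.4 and 73.6 CPM in BRAF V600E Bap1 KO tumours. It was lowest in BRAF V600E Bap1 KO replicates 2 to 4. GNA11 Q209L Bap1 KO tumours did not overlap with BRAF V600E Bap1 KO tumours, while GNA11 Q209L replicate 1 lay below BRAF V600E Bap1 KO replicate 1. Gna11 stood 2.93-fold higher in GNA11 Q209L Bap1 KO tumours than in BRAF V600E Bap1 KO tumours (320 ± 132 against 109 ± 53 CPM, SD, n = 5 and 4, log2 fold change 1.55 ± 0.45 SE, adjusted p = 0.0199). Without BRAF V600E Bap1 KO replicate 2 or replicate 4 it no longer passed, with an adjusted p of up to 0.169 over the alternatives. In GNA11 Q209L Bap1 KO against GNA11 Q209L its log2 fold change came to 0.15 ± 0.54 (SE, adjusted p = 0.958), and in GNA11 Q209L against BRAF V600E Bap1 KO tumours it was 1.4 ± 0.54 (adjusted p = 0.0895).

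The table also counts the human GNA11-Q209L sequence apart from the mouse gene. It stood at 6.51, 11.8, 17.3, 6.52 and 17.4 CPM in GNA11 Q209L Bap1 KO tumours, 22.9 and 125 CPM in GNA11 Q209L, and 0.0562, 0.0341, 0 and 0 CPM in BRAF V600E Bap1 KO tumours. Every GNA11 Q209L Bap1 KO library lay below both GNA11 Q209L libraries. The human sequence made up 2.2 to 5.97% of human and mouse counts together in GNA11 Q209L Bap1 KO tumours, and 14.3% and 22.1% in GNA11 Q209L. The library with the most human sequence, GNA11 Q209L replicate 2, also had more mouse Gna11 (441 CPM) than GNA11 Q209L replicate 1 (138 CPM). GNA11 Q209L Bap1 KO replicate 2 had the most mouse Gna11 of all (524 CPM) with 11.8 CPM of the human sequence. How many reads of the transgene fell on the mouse gene was not tested. With the human counts added to Gna11, the log2 fold change of GNA11 Q209L Bap1 KO against GNA11 Q209L was -0.13, against 0.15 without them, and neither passed. Gna11 stood above Gnaq in all 7 GNA11 Q209L libraries, with ratios of CPM of 1.63, 4.93, 1.87, 1.36 and 3.21 in GNA11 Q209L Bap1 KO tumours, 1.46 and 5.13 in GNA11 Q209L, and 2.25, 1.17, 0.976 and 0.818 in BRAF V600E Bap1 KO tumours. These ratios are not corrected for transcript length.

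**Figure D3:**
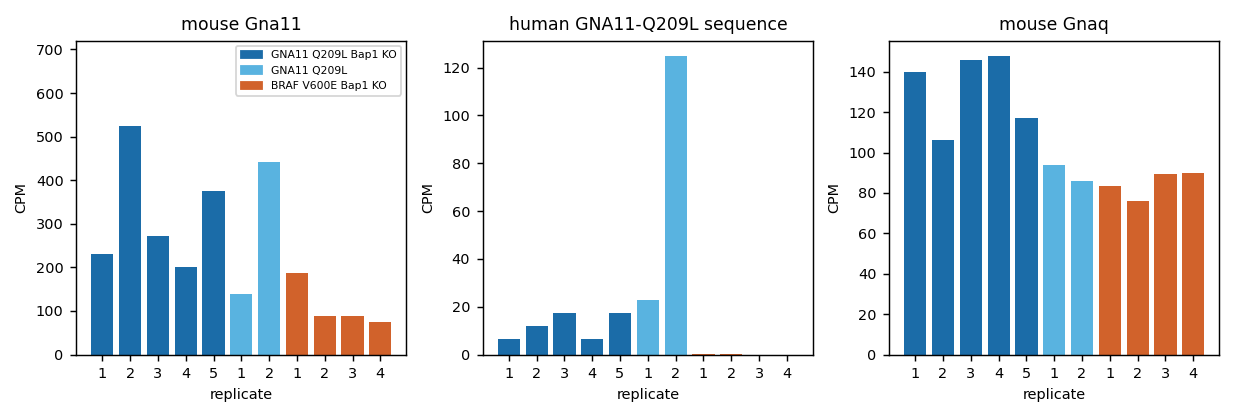
CPM (linear axes) of mouse Gna11, of the human GNA11-Q209L sequence and of mouse Gnaq by replicate, with GNA11 Q209L Bap1 KO in dark blue, GNA11 Q209L in light blue and BRAF V600E Bap1 KO tumours in orange. The human sequence reaches 125 CPM in GNA11 Q209L replicate 2 and is at most 17.4 CPM in GNA11 Q209L Bap1 KO tumours, while Gnaq is at 106 CPM or more in GNA11 Q209L Bap1 KO tumours and at 94.1 CPM or less elsewhere.

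Gnaq (ENSMUSG00000024639), the gene of the closest Gq family member, had 140, 106, 146, 148 and 117 CPM in GNA11 Q209L Bap1 KO tumours. The GNA11 Q209L tumours had 94.1 and 86.1 CPM, and the BRAF V600E Bap1 KO tumours had 83.6, 75.8, 89.6 and 89.9 CPM. All 5 GNA11 Q209L Bap1 KO libraries lay above the other 6. It stood 1.55-fold higher in GNA11 Q209L Bap1 KO tumours than in BRAF V600E Bap1 KO tumours (131 ± 18.5 against 84.7 ± 6.61 CPM, SD, n = 5 and 4, log2 fold change 0.63 ± 0.17 SE, adjusted p = 0.0151), and lost the call without BRAF V600E Bap1 KO replicates 2 and 4 together (adjusted p = 0.108). Against GNA11 Q209L it was 1.46-fold higher without passing (log2 fold change 0.54 ± 0.22 SE, adjusted p = 0.382). Its neighbour on chromosome 19, Gna14, was lower in GNA11 Q209L Bap1 KO tumours than in BRAF V600E Bap1 KO tumours.

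Gna14 (ENSMUSG00000024697), a Gq family gene of narrower expression, had 0.923, 0.166, 1.08, 1.05 and 0.622 CPM in GNA11 Q209L Bap1 KO tumours, 0.576 and 2.32 CPM in GNA11 Q209L tumours, and 2.58, 28.2, 10.2 and 25.4 CPM in BRAF V600E Bap1 KO tumours. Each BRAF V600E Bap1 KO library lay above each of the 7 GNA11 Q209L libraries. Gna14 was 21.6-fold lower in GNA11 Q209L Bap1 KO tumours than in BRAF V600E Bap1 KO tumours (log2 fold change -4.43 ± 0.79 SE, adjusted p = 0.00278), and passed under all 19 alternatives. Gna15 (ENSMUSG00000034792), the Gq family gene of blood cells, lies next to Gna11 and had 2.99, 2.54, 2.38, 0.666 and 1.07 CPM in GNA11 Q209L Bap1 KO tumours. In GNA11 Q209L tumours it stood at 7.64 and 3.34 CPM, and in BRAF V600E Bap1 KO tumours at 2.02, 3.34, 8.95 and 14 CPM. Its groups overlapped, and it was lower in GNA11 Q209L Bap1 KO tumours than in BRAF V600E Bap1 KO tumours (log2 fold change -1.88 ± 0.65 SE, adjusted p = 0.0399), a call lost under 11 of 19 alternatives. GNA11 Q209L replicate 1 held the most Gna15 among the 7 GNA11 Q209L libraries. There 7 macrophage markers summed to 6456 CPM, against 203 to 1041 CPM in GNA11 Q209L Bap1 KO tumours and 740 CPM in GNA11 Q209L replicate 2. In BRAF V600E Bap1 KO replicates 1 to 4 they summed to 2397, 2416, 681 and 1568 CPM. Replicates 3 and 4, with the most Gna15, had the lower macrophage sums and the higher fibroblast, keratinocyte and Schwann cell sums, as given above. Replicate 4 also held 173918 CPM of salivary gland markers. The part of these cell types in the result was not tested.

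Gnas (ENSMUSG00000027523), which encodes the stimulatory subunit Gs, had 35, 42.3, 43.8, 46.6 and 69.9 CPM in GNA11 Q209L Bap1 KO tumours. Levels were 43.6 and 38.8 CPM in GNA11 Q209L and 32.9, 21.3, 17.5 and 15.4 CPM in BRAF V600E Bap1 KO tumours. GNA11 Q209L Bap1 KO tumours and BRAF V600E Bap1 KO tumours did not overlap. It stood 2.18-fold higher in GNA11 Q209L Bap1 KO tumours (47.5 ± 13.2 against 21.8 ± 7.84 CPM, SD, n = 5 and 4, log2 fold change 1.12 ± 0.28 SE, adjusted p = 0.0115). Without BRAF V600E Bap1 KO replicates 2 and 4 the adjusted p was 0.104. Other genes share 22% of its exon bases, and their reads cannot be told apart here. Gnai2 (ENSMUSG00000032562), the inhibitory subunit with the most RNA, had 786, 1052, 1168, 623 and 1141 CPM in GNA11 Q209L Bap1 KO tumours, 898 and 1138 CPM in GNA11 Q209L tumours, and 619, 534, 356 and 341 CPM in BRAF V600E Bap1 KO tumours. It stood 2.06-fold higher in GNA11 Q209L Bap1 KO tumours than in BRAF V600E Bap1 KO tumours (log2 fold change 1.04 ± 0.3 SE, adjusted p = 0.02), with the lowest GNA11 Q209L Bap1 KO library (623 CPM) close to the highest BRAF V600E Bap1 KO library (619 CPM). The call was lost without BRAF V600E Bap1 KO replicate 3 or replicate 4.

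The other widely expressed inhibitory gene, Gnai3 (ENSMUSG00000000001), had 127, 95.8, 137, 161 and 180 CPM in GNA11 Q209L Bap1 KO tumours. It was at 131 and 124 CPM in GNA11 Q209L and at 247, 133, 183 and 188 CPM in BRAF V600E Bap1 KO tumours. Its groups overlapped between GNA11 Q209L Bap1 KO tumours and BRAF V600E Bap1 KO tumours and it did not pass (log2 fold change -0.42 ± 0.24 SE, adjusted p = 0.175). Gnai1 (ENSMUSG00000057614), whose protein also restrains adenylyl cyclase, had 3.31, 1.33, 2.11, 3.81 and 6.05 CPM in GNA11 Q209L Bap1 KO tumours. In GNA11 Q209L tumours it stood at 6.46 and 2.18 CPM, and in BRAF V600E Bap1 KO tumours at 6.93, 9.98, 49.2 and 33 CPM. All 4 BRAF V600E Bap1 KO libraries lay above all 7 others, and replicates 3 and 4 lay above replicates 1 and 2. Gnai1 was 7.46-fold lower in GNA11 Q209L Bap1 KO tumours than in BRAF V600E Bap1 KO tumours (log2 fold change -2.89 ± 0.67 SE, adjusted p = 0.00791) and passed under all 19 alternatives. Among the Gnai genes, Gnai2 was higher and Gnai1 lower in GNA11 Q209L Bap1 KO tumours than in BRAF V600E Bap1 KO tumours, and Gnai3 did not pass.

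Gnao1 (ENSMUSG00000031748), which encodes the Go subunit best known from neurons, had 26.2, 38, 24.3, 38.2 and 38 CPM in GNA11 Q209L Bap1 KO tumours, 12.3 and 7.8 CPM in GNA11 Q209L tumours, and 32.7, 46.9, 18.7 and 6.7 CPM in BRAF V600E Bap1 KO tumours. The GNA11 Q209L Bap1 KO libraries lay above both GNA11 Q209L libraries, by 3.28-fold in the means, but did not pass (log2 fold change 1.71 ± 0.63 SE, adjusted p = 0.354). BRAF V600E Bap1 KO tumours held both the lowest and the highest library. Gna12 (ENSMUSG00000000149) and Gna13 (ENSMUSG00000020611), the genes of the G12 family, overlapped between the genotypes. Gna12 had 107, 136, 109, 126 and 140 CPM in GNA11 Q209L Bap1 KO tumours. The GNA11 Q209L tumours had 180 and 117 CPM, and the BRAF V600E Bap1 KO tumours had 143, 118, 96.3 and 97.5 CPM. Gna13 had 149, 137, 138, 147 and 139 CPM in GNA11 Q209L Bap1 KO tumours. It was at 143 and 157 CPM in GNA11 Q209L and at 140, 167, 102 and 109 CPM in BRAF V600E Bap1 KO tumours. Neither passed between GNA11 Q209L Bap1 KO tumours and BRAF V600E Bap1 KO tumours, with log2 fold changes of 0.12 ± 0.2 and 0.13 ± 0.19 (SE, adjusted p = 0.661 and 0.59).

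**Figure D4:**
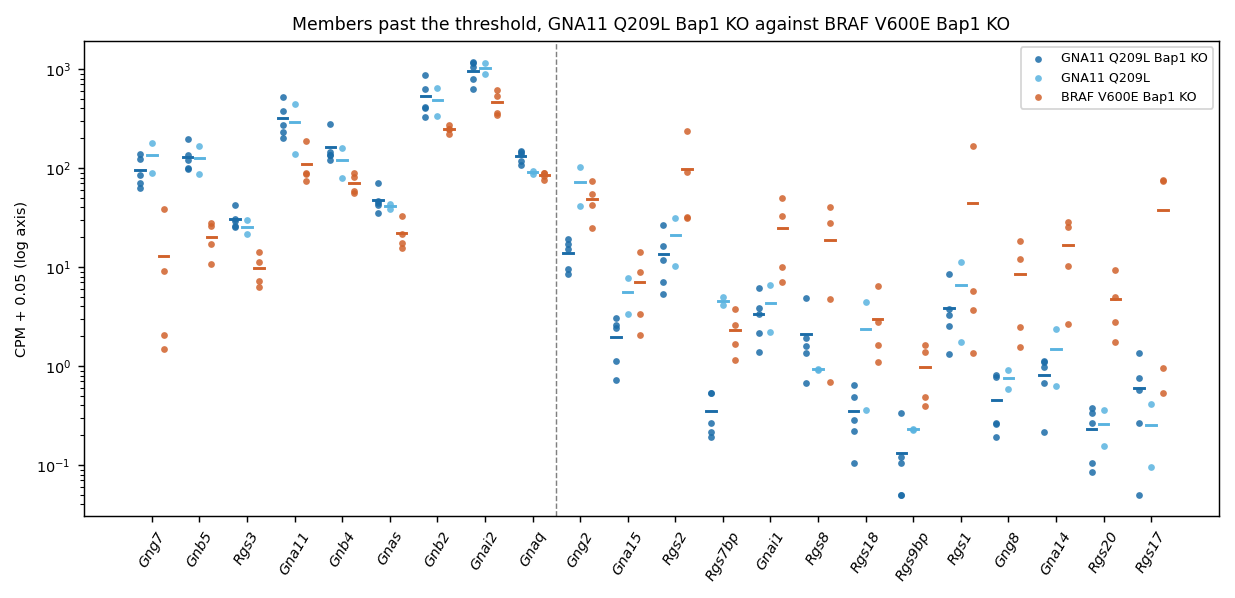
CPM + 0.05 on a log axis of the 22 members that passed between GNA11 Q209L Bap1 KO tumours and BRAF V600E Bap1 KO tumours, with points for libraries and bars for means, GNA11 Q209L Bap1 KO in dark blue, GNA11 Q209L in light blue and BRAF V600E Bap1 KO tumours in orange, and higher members left of the dashed line. Gnb5 lies between 97.9 and 195 CPM in GNA11 Q209L Bap1 KO tumours and between 10.6 and 27.8 CPM in BRAF V600E Bap1 KO tumours, while Rgs17 spans 0.479 to 75.6 CPM within BRAF V600E Bap1 KO tumours.

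Of the 5 beta genes, 3 were higher in GNA11 Q209L Bap1 KO tumours than in BRAF V600E Bap1 KO tumours and none was lower, where 16.5% of all genes were higher and 24.7% lower. Gnb5 (ENSMUSG00000032192) had 97.9, 120, 135, 99.3 and 195 CPM in GNA11 Q209L Bap1 KO tumours, 86.3 and 165 CPM in GNA11 Q209L tumours, and 27.8, 10.6, 25.8 and 16.9 CPM in BRAF V600E Bap1 KO tumours. Each of the 7 GNA11 Q209L libraries was at 86.3 CPM or more and every BRAF V600E Bap1 KO library at 27.8 CPM or less. Gnb5 stood 6.38-fold higher in GNA11 Q209L Bap1 KO tumours (129 ± 39.7 against 20.3 ± 8.01 CPM, SD, n = 5 and 4, log2 fold change 2.67 ± 0.37 SE, adjusted p = 0.000848) and 6.2-fold higher in GNA11 Q209L (log2 fold change 2.63 ± 0.42 SE, adjusted p = 0.00547) than in BRAF V600E Bap1 KO tumours. The call against BRAF V600E Bap1 KO tumours held for GNA11 Q209L Bap1 KO tumours under all 19 alternatives, with log2 fold changes of 2.25 to 2.93, and the call of GNA11 Q209L against BRAF V600E Bap1 KO tumours was lost without GNA11 Q209L replicate 2 (adjusted p = 0.0747). Gnb5 in GNA11 Q209L Bap1 KO against GNA11 Q209L stood at 0.04 ± 0.42 on the log2 fold scale (SE, adjusted p = 0.991).

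Gnb4 (ENSMUSG00000027669) had 135, 145, 121, 280 and 136 CPM in GNA11 Q209L Bap1 KO tumours. Levels were 78.4 and 160 CPM in GNA11 Q209L and 58.5, 80.5, 89.4 and 56 CPM in BRAF V600E Bap1 KO tumours. It stood 2.3-fold higher in GNA11 Q209L Bap1 KO tumours than in BRAF V600E Bap1 KO tumours (log2 fold change 1.2 ± 0.32 SE, adjusted p = 0.0152), the groups did not overlap, and GNA11 Q209L Bap1 KO replicate 4 stood above the other 4. The call was lost without BRAF V600E Bap1 KO replicates 2 and 4 together (adjusted p = 0.0973). Gnb2 (ENSMUSG00000029713) had 417, 877, 405, 328 and 634 CPM in GNA11 Q209L Bap1 KO tumours. The GNA11 Q209L tumours had 333 and 642 CPM, and the BRAF V600E Bap1 KO tumours had 274, 246, 250 and 223 CPM. Levels in BRAF V600E Bap1 KO tumours were tight and below each of the 7 GNA11 Q209L libraries. Gnb2 stood 2.14-fold higher in GNA11 Q209L Bap1 KO tumours than there (log2 fold change 1.1 ± 0.33 SE, adjusted p = 0.0241), a call lost under 6 of 19 alternatives. Gnb1 (ENSMUSG00000029064), the other main beta subunit, had 641, 770, 554, 828 and 806 CPM in GNA11 Q209L Bap1 KO tumours, 548 and 608 CPM in GNA11 Q209L tumours, and 628, 455, 238 and 281 CPM in BRAF V600E Bap1 KO tumours. It narrowly missed the threshold between GNA11 Q209L Bap1 KO tumours and BRAF V600E Bap1 KO tumours (log2 fold change 0.84 ± 0.31 SE, adjusted p = 0.0512), and passed with DESeq2 and with limma voom. The levels of the 3 genes were not tested against one another. The summed CPM of the 5 beta genes was 1214 to 1912 in GNA11 Q209L Bap1 KO tumours, 1047 and 1575 in GNA11 Q209L and 577 to 989 in BRAF V600E Bap1 KO tumours. No BRAF V600E Bap1 KO library reached any of the 7 GNA11 Q209L libraries.

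Among gamma genes, Gng7 (ENSMUSG00000048240), known as a partner of the olfactory-type Gs in the striatum, had 62.4, 123, 85.2, 70.6 and 137 CPM in GNA11 Q209L Bap1 KO tumours. In GNA11 Q209L tumours it stood at 88.7 and 179 CPM, and in BRAF V600E Bap1 KO tumours at 1.99, 1.43, 38.7 and 9.05 CPM. All 7 GNA11 Q209L libraries lay above all BRAF V600E Bap1 KO libraries. Within BRAF V600E Bap1 KO tumours, replicates 1 and 2 were below 2 CPM while replicate 3 reached 38.7 CPM. It stood 7.49-fold higher in GNA11 Q209L Bap1 KO tumours (log2 fold change 2.9 ± 0.89 SE, adjusted p = 0.0245) and 10.5-fold higher in GNA11 Q209L (log2 fold change 3.39 ± 1.01 SE, adjusted p = 0.0469) than in BRAF V600E Bap1 KO tumours. Without replicate 3 the BRAF V600E Bap1 KO mean of 12.8 CPM was 4.16 CPM. When BRAF V600E Bap1 KO replicate 4 was left out the gene did not pass in GNA11 Q209L Bap1 KO against BRAF V600E Bap1 KO tumours, and the call of GNA11 Q209L against BRAF V600E Bap1 KO tumours ended when any single library other than BRAF V600E Bap1 KO replicate 3 was left out. The latter call was also lost with no expression filter, with the Xist covariate and in the fit of these genotypes alone. Summing GNA11 Q209L Bap1 KO replicates 1 and 2 ended it too, and both calls were lost without BRAF V600E Bap1 KO replicates 2 and 4 together. The Schwann cell markers, which include Sox10, were, like Gng7, lower in BRAF V600E Bap1 KO replicates 1 and 2 than in replicates 3 and 4, as given above. So were the fibroblast and keratinocyte markers. Their part in the result was not tested.

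Gng2 (ENSMUSG00000043004), a widely used gamma subunit, had 19, 8.4, 17.2, 15.3 and 9.59 CPM in GNA11 Q209L Bap1 KO tumours. Levels were 102 and 41.7 CPM in GNA11 Q209L and 24.8, 55.2, 73.3 and 42.4 CPM in BRAF V600E Bap1 KO tumours. All GNA11 Q209L Bap1 KO libraries lay below all others. It stood 3.52-fold lower in GNA11 Q209L Bap1 KO tumours than in BRAF V600E Bap1 KO tumours (log2 fold change -1.82 ± 0.39 SE, adjusted p = 0.00592), under all 19 alternatives too. Against GNA11 Q209L it was 5.15-fold lower without passing in edgeR (log2 fold change -2.37 ± 0.45 SE, adjusted p = 0.123), while DESeq2 gave an adjusted p of 0.00102. The GNA11 Q209L mean of 71.7 CPM was 41.7 CPM without replicate 1, the library with 6456 CPM of macrophage markers. Replicate 2 held 740 CPM of these markers, within the 203 to 1041 CPM of GNA11 Q209L Bap1 KO tumours, where Gng2 was at most 19 CPM. Fibroblast markers were also lower in every GNA11 Q209L Bap1 KO library (286 to 2189 CPM) than in every other library (2833 CPM or more). The part of macrophages and fibroblasts in the result was not tested. Other genes share 20.4% of the exon bases of Gng2.

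Gng8 (ENSMUSG00000063594), best known from olfactory and vomeronasal neurons, had 0.217, 0.719, 0.757, 0.143 and 0.207 CPM in GNA11 Q209L Bap1 KO tumours, 0.863 and 0.535 CPM in GNA11 Q209L tumours, and 18.1, 11.9, 2.44 and 1.52 CPM in BRAF V600E Bap1 KO tumours. It stood 20.7-fold lower in GNA11 Q209L Bap1 KO tumours than in BRAF V600E Bap1 KO tumours (log2 fold change -4.39 ± 0.86 SE, adjusted p = 0.00398), with no overlap, and BRAF V600E Bap1 KO replicates 1 and 2 stood above replicates 3 and 4. The BRAF V600E Bap1 KO mean of 8.47 CPM was 5.27 CPM without replicate 1. Gng12 (ENSMUSG00000036402), the gamma gene with the most RNA in both GNA11 Q209L genotypes, had 136, 246, 247, 256 and 377 CPM in GNA11 Q209L Bap1 KO tumours. It was at 325 and 310 CPM in GNA11 Q209L and at 191, 159, 137 and 136 CPM in BRAF V600E Bap1 KO tumours. In GNA11 Q209L Bap1 KO against BRAF V600E Bap1 KO tumours it did not pass (log2 fold change 0.69 ± 0.27 SE, adjusted p = 0.0635) in edgeR, and passed in DESeq2, after summing GNA11 Q209L Bap1 KO replicates 1 and 2, and without GNA11 Q209L Bap1 KO replicate 1. Gng5 (ENSMUSG00000068523), another common gamma gene, had 23.7, 32, 23.7, 29.7 and 25.6 CPM in GNA11 Q209L Bap1 KO tumours. In GNA11 Q209L tumours it stood at 38.7 and 24.1 CPM, and in BRAF V600E Bap1 KO tumours at 35.1, 32.9, 21.6 and 24 CPM. Its groups overlapped in each comparison, and its log2 fold change between GNA11 Q209L Bap1 KO tumours and BRAF V600E Bap1 KO tumours was -0.08 ± 0.23 (SE, adjusted p = 0.805).

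Of the RGS genes of the R4 family, which are small proteins built around the RGS domain, 1 rose and 4 fell in GNA11 Q209L Bap1 KO tumours relative to BRAF V600E Bap1 KO tumours, where 16.5% of all genes rose and 24.7% fell. The 4 include Rgs1, whose sign turned without BRAF V600E Bap1 KO replicate 2. Rgs3 (ENSMUSG00000059810) was the member that rose, with 26.1, 42.7, 30.4, 25.3 and 29.1 CPM in GNA11 Q209L Bap1 KO tumours, 29.5 and 21.3 CPM in GNA11 Q209L tumours, and 6.3, 7.19, 11.2 and 14.1 CPM in BRAF V600E Bap1 KO tumours. It stood 3.16-fold higher in GNA11 Q209L Bap1 KO tumours (30.7 ± 7.01 against 9.71 ± 3.63 CPM, SD, n = 5 and 4, log2 fold change 1.66 ± 0.31 SE, adjusted p = 0.0032) and 2.61-fold higher in GNA11 Q209L (log2 fold change 1.39 ± 0.37 SE, adjusted p = 0.0337) than in BRAF V600E Bap1 KO tumours. The groups did not overlap in either comparison, and the first call held under all 19 alternatives. The second was lost under 6 of 19, among them the Xist covariate (adjusted p = 0.0642), the fit of these genotypes alone (adjusted p = 0.104), and the fits without GNA11 Q209L replicate 1, without GNA11 Q209L replicate 2 or without BRAF V600E Bap1 KO replicate 2.

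Rgs2 (ENSMUSG00000026360), which acts with preference on Gq, had 11.8, 16.3, 6.98, 26.7 and 5.34 CPM in GNA11 Q209L Bap1 KO tumours. The GNA11 Q209L tumours had 31.4 and 10.3 CPM, and the BRAF V600E Bap1 KO tumours had 90.5, 234, 31.8 and 30.9 CPM. Every BRAF V600E Bap1 KO library lay above every GNA11 Q209L Bap1 KO library, and GNA11 Q209L lay across that gap. Rgs2 was 7.2-fold lower in GNA11 Q209L Bap1 KO tumours than in BRAF V600E Bap1 KO tumours (13.4 ± 8.56 against 96.7 ± 95.4 CPM, SD, n = 5 and 4, log2 fold change -2.85 ± 0.71 SE, adjusted p = 0.0108), under all 19 alternatives. The BRAF V600E Bap1 KO mean was 51.1 CPM without replicate 2. Against GNA11 Q209L the log2 fold change was -0.64 ± 0.82 (SE, adjusted p = 0.838). Rgs1 (ENSMUSG00000026358), a regulator of lymphocyte migration, had 3.75, 1.27, 8.38, 3.19 and 2.51 CPM in GNA11 Q209L Bap1 KO tumours. It was at 11.3 and 1.69 CPM in GNA11 Q209L and at 5.72, 166, 3.62 and 1.31 CPM in BRAF V600E Bap1 KO tumours. Its mean in BRAF V600E Bap1 KO tumours rested on replicate 2 and was 3.55 CPM without it. The call in GNA11 Q209L Bap1 KO against BRAF V600E Bap1 KO tumours (log2 fold change -3.53 ± 1.3 SE, adjusted p = 0.0496) became a log2 fold change of 0.09 (adjusted p = 0.932) without that library. BRAF V600E Bap1 KO replicate 2 also held the highest sums of 8 T and NK cell markers (71.5 CPM), of 5 B cell markers (11 CPM) and of 4 neutrophil markers (300 CPM) among the 11 libraries. Their part was not tested.

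Rgs18 (ENSMUSG00000026357), the RGS gene of platelets and megakaryocytes, had 0.434, 0.0553, 0.595, 0.238 and 0.173 CPM in GNA11 Q209L Bap1 KO tumours, 4.37 and 0.312 CPM in GNA11 Q209L tumours, and 1.57, 1.06, 2.75 and 6.35 CPM in BRAF V600E Bap1 KO tumours. It stood 9.81-fold lower in GNA11 Q209L Bap1 KO tumours than in BRAF V600E Bap1 KO tumours (log2 fold change -3.3 ± 0.89 SE, adjusted p = 0.0149), with no overlap. In all, 5 platelet and megakaryocyte markers summed to 2.78 to 9.52 CPM in GNA11 Q209L Bap1 KO tumours, 5.94 and 5.39 CPM in GNA11 Q209L and 26 to 139 CPM in BRAF V600E Bap1 KO tumours. In BRAF V600E Bap1 KO replicates 1 to 4 the sums were 139, 34.7, 26 and 33.9 CPM, in another order than Rgs18. GNA11 Q209L replicates 1 and 2 had similar sums and 4.37 and 0.312 CPM of Rgs18. Their part in the result was not tested. Without replicate 4 the BRAF V600E Bap1 KO mean of 2.93 CPM was 1.79 CPM, and leaving out replicates 2 and 4 together gave an adjusted p of 0.0561. Rgs8 (ENSMUSG00000042671), known from Purkinje and other neurons, had 4.83, 1.55, 1.89, 1.29 and 0.622 CPM in GNA11 Q209L Bap1 KO tumours. Levels were 0.863 and 0.892 CPM in GNA11 Q209L and 4.7, 0.647, 28.1 and 40.5 CPM in BRAF V600E Bap1 KO tumours. Its call in GNA11 Q209L Bap1 KO against BRAF V600E Bap1 KO tumours (log2 fold change -3.19 ± 0.97 SE, adjusted p = 0.0245) rested on BRAF V600E Bap1 KO replicates 3 and 4 and was lost under 7 of 19 alternatives. Without replicate 4 the mean of 18.5 CPM in BRAF V600E Bap1 KO tumours was 11.1 CPM. The BRAF V600E Bap1 KO libraries high in Rgs8 were those high in Schwann cell, fibroblast and keratinocyte markers. Schwann cell markers summed to 1122 to 2162 CPM in GNA11 Q209L Bap1 KO tumours, where Rgs8 was at 4.83 CPM or less. BRAF V600E Bap1 KO replicate 4, the library with the most Rgs8, also held 173918 CPM of salivary gland and 4585 CPM of skeletal muscle markers. The part of these cell types was not tested.

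Rgs5 (ENSMUSG00000026678), a marker of pericytes, had 20.2, 21.9, 14.3, 222 and 75.7 CPM in GNA11 Q209L Bap1 KO tumours. The GNA11 Q209L tumours had 395 and 30 CPM, and the BRAF V600E Bap1 KO tumours had 18.8, 40.2, 200 and 150 CPM. It varied within each genotype, with GNA11 Q209L replicate 1 and GNA11 Q209L Bap1 KO replicate 4 at the top of their groups, and passed in no comparison (log2 fold change -0.53 ± 1 SE, adjusted p = 0.686 between GNA11 Q209L Bap1 KO tumours and BRAF V600E Bap1 KO tumours). The summed level of 8 pericyte and smooth muscle markers was 557 and 1091 CPM in GNA11 Q209L replicates 1 and 2, the opposite order of Rgs5. In BRAF V600E Bap1 KO replicates 1 to 4 it was 416, 243, 670 and 829 CPM, with replicates 3 and 4 high in both. Rgs16 (ENSMUSG00000026475), an R4 gene that neighbours Rgs8 on chromosome 1, had 49.1, 18.5, 71.1, 46 and 39.6 CPM in GNA11 Q209L Bap1 KO tumours, 51.7 and 48 CPM in GNA11 Q209L tumours, and 119, 21, 46.5 and 56.6 CPM in BRAF V600E Bap1 KO tumours. Its groups overlapped in each comparison, and its log2 fold change between GNA11 Q209L Bap1 KO tumours and BRAF V600E Bap1 KO tumours was -0.44 ± 0.47 (SE, adjusted p = 0.468).

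The R7 family (Rgs6, Rgs7, Rgs9 and Rgs11) works as a complex: each protein is stable only when bound to G beta 5, and Rgs7bp or Rgs9bp ties the complex to membranes. Gnb5 was high in all 7 GNA11 Q209L libraries, as given above, but none of its R7 partners passed between GNA11 Q209L Bap1 KO tumours and BRAF V600E Bap1 KO tumours in edgeR. DESeq2 called Rgs11 and Rgs9 there. Rgs11 (ENSMUSG00000024186), known from bipolar cells of the retina, had 10.7, 2.05, 18, 23.2 and 11.8 CPM in GNA11 Q209L Bap1 KO tumours. In GNA11 Q209L tumours it stood at 1.7 and 1.69 CPM, and in BRAF V600E Bap1 KO tumours at 5.18, 3.81, 2.68 and 6.66 CPM. The GNA11 Q209L Bap1 KO libraries lay above both GNA11 Q209L libraries, 7.75-fold in the means (log2 fold change 2.95 ± 0.84 SE, adjusted p = 0.251), without passing in edgeR and with an adjusted p of 0.00467 in DESeq2. The lowest of its group was GNA11 Q209L Bap1 KO replicate 2. Between GNA11 Q209L Bap1 KO tumours and BRAF V600E Bap1 KO tumours its log2 fold change came to 1.52 ± 0.58 (SE, adjusted p = 0.0572 in edgeR). It passed there with DESeq2 (adjusted p = 0.0201), after summing GNA11 Q209L Bap1 KO replicates 1 and 2 (0.0177) and without GNA11 Q209L Bap1 KO replicate 2 (0.00967).

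Rgs7 (ENSMUSG00000026527) had 0.326, 0.111, 2.43, 0.524 and 0.985 CPM in GNA11 Q209L Bap1 KO tumours. Levels were 0.0523 and 0 CPM in GNA11 Q209L and 0.0674, 0.238, 0.0696 and 0.479 CPM in BRAF V600E Bap1 KO tumours. Its 2 counts in GNA11 Q209L make the GNA11 Q209L Bap1 KO mean 26.6 times higher, with a 95% interval of 7.35 to 219 that covers counting error alone, and the edgeR test did not pass (adjusted p = 0.33). Rgs9 (ENSMUSG00000020599), outside the naming rule and named after its values were seen, had 0.326, 0.166, 1.19, 6.76 and 41.1 CPM in GNA11 Q209L Bap1 KO tumours, 0.785 and 1.69 CPM in GNA11 Q209L tumours, and 0.303, 0.272, 2.58 and 2.31 CPM in BRAF V600E Bap1 KO tumours. Nearly all of it was in GNA11 Q209L Bap1 KO replicate 5, and the GNA11 Q209L Bap1 KO mean of 9.91 CPM was 2.11 CPM without that library. It passed in no comparison in edgeR, and DESeq2 called it in GNA11 Q209L Bap1 KO against BRAF V600E Bap1 KO tumours. Rgs6 had 3 counts in GNA11 Q209L Bap1 KO tumours, 1 in GNA11 Q209L and 9 in BRAF V600E Bap1 KO tumours.

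Rgs7bp (ENSMUSG00000021719), the anchor, had 0.489, 0.166, 0.216, 0.143 and 0.484 CPM in GNA11 Q209L Bap1 KO tumours. It was at 4.13 and 4.9 CPM in GNA11 Q209L and at 1.61, 1.09, 2.54 and 3.7 CPM in BRAF V600E Bap1 KO tumours. Both GNA11 Q209L libraries lay above all BRAF V600E Bap1 KO libraries, which lay above all GNA11 Q209L Bap1 KO libraries. It stood 15.1-fold lower in GNA11 Q209L Bap1 KO tumours than in GNA11 Q209L, the smallest p among the members in that comparison (log2 fold change -3.88 ± 0.62 SE, adjusted p = 0.0662). Fitted to these genotypes alone, edgeR gave an adjusted p of 0.0402, and DESeq2 gave 3.2e-06. Against BRAF V600E Bap1 KO tumours it was 7.46-fold lower in GNA11 Q209L Bap1 KO tumours (log2 fold change -2.86 ± 0.55 SE, adjusted p = 0.00376), under all 19 alternatives. Rgs9bp (ENSMUSG00000056043), the anchor known from photoreceptors, was chosen after its values were seen because it passed below the level that the naming rule asks for. It had 0.0543, 0, 0, 0.286 and 0.0691 CPM in GNA11 Q209L Bap1 KO tumours, 0.183 and 0.178 CPM in GNA11 Q209L tumours, and 0.438, 0.341, 1.32 and 1.57 CPM in BRAF V600E Bap1 KO tumours, and was 11.2-fold lower in GNA11 Q209L Bap1 KO tumours than in BRAF V600E Bap1 KO tumours on 11 counts in GNA11 Q209L Bap1 KO tumours (log2 fold change -3.4 ± 0.93 SE, adjusted p = 0.0162). Both anchors fell in GNA11 Q209L Bap1 KO tumours relative to BRAF V600E Bap1 KO tumours while Gnb5 rose.

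**Figure D5:**
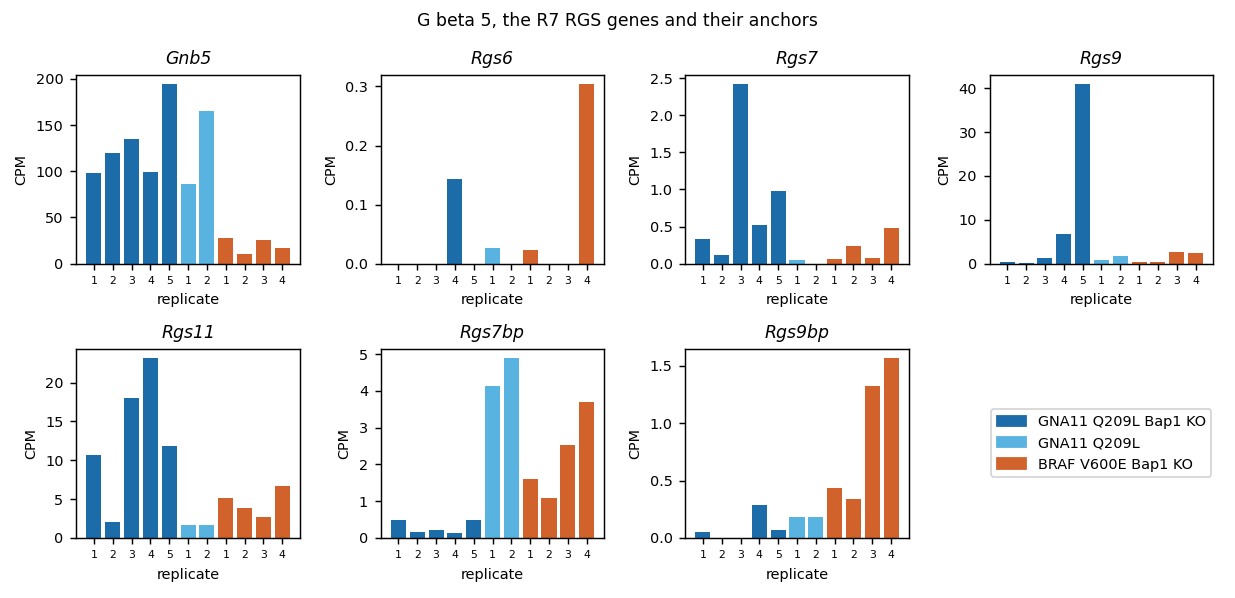
CPM (linear axes that differ between panels) of Gnb5, the R7 genes Rgs6, Rgs7, Rgs9 and Rgs11, and the anchors Rgs7bp and Rgs9bp by replicate, with GNA11 Q209L Bap1 KO in dark blue, GNA11 Q209L in light blue and BRAF V600E Bap1 KO tumours in orange. Gnb5 is at 86.3 CPM or more in all 7 GNA11 Q209L libraries, Rgs9 reaches 41.1 CPM in GNA11 Q209L Bap1 KO replicate 5 alone, and Rgs7bp is at 0.489 CPM or less in GNA11 Q209L Bap1 KO tumours.

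In the RZ family, which acts on Gz and Gi, 2 of 3 genes fell in GNA11 Q209L Bap1 KO tumours relative to BRAF V600E Bap1 KO tumours, where 24.7% of all genes fell. Rgs20 (ENSMUSG00000002459) had 0.326, 0.0553, 0.216, 0.286 and 0.0346 CPM in GNA11 Q209L Bap1 KO tumours, 0.105 and 0.312 CPM in GNA11 Q209L tumours, and 9.29, 1.7, 4.91 and 2.74 CPM in BRAF V600E Bap1 KO tumours. The highest of the 7 GNA11 Q209L libraries (0.326 CPM) lay below the lowest BRAF V600E Bap1 KO library (1.7 CPM). It stood 25.4-fold lower in GNA11 Q209L Bap1 KO tumours (log2 fold change -4.69 ± 0.81 SE, adjusted p = 0.00228) and 22.4-fold lower in GNA11 Q209L (log2 fold change -4.5 ± 1.18 SE, adjusted p = 0.0331) than in BRAF V600E Bap1 KO tumours, on 19 counts in GNA11 Q209L Bap1 KO tumours and 11 in GNA11 Q209L. The first call held under all 19 alternatives, and the second was lost under 3 of 19, among them those without GNA11 Q209L replicate 1 or replicate 2. Rgs17 (ENSMUSG00000019775) had 0.706, 0, 0.216, 0.524 and 1.3 CPM in GNA11 Q209L Bap1 KO tumours. The GNA11 Q209L tumours had 0.366 and 0.0446 CPM, and the BRAF V600E Bap1 KO tumours had 75.6, 73.9, 0.905 and 0.479 CPM. It was at 73.9 CPM or more in BRAF V600E Bap1 KO replicates 1 and 2 and at 0.905 CPM or less in every other library but GNA11 Q209L Bap1 KO replicate 5, so GNA11 Q209L Bap1 KO tumours and BRAF V600E Bap1 KO tumours overlapped.

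The fold of Rgs17 was the largest among the members called: it was 68.8-fold lower in GNA11 Q209L Bap1 KO tumours than in BRAF V600E Bap1 KO tumours (log2 fold change -6.04 ± 1.56 SE, adjusted p = 0.0127). limma voom did not call it (adjusted p = 0.125). The split within BRAF V600E Bap1 KO tumours came with the same pairs of libraries as Gng8 (18.1 and 11.9 CPM in replicates 1 and 2, 2.44 and 1.52 CPM in replicates 3 and 4). BRAF V600E Bap1 KO replicates 1 and 2 were also those with lower sums of Schwann cell, fibroblast and keratinocyte markers. The part of cell content was not tested. The third RZ gene, Rgs19, lay at 22.4 to 32 CPM in GNA11 Q209L Bap1 KO tumours, 20.5 to 33.8 CPM in GNA11 Q209L and 14.4 to 41.8 CPM in BRAF V600E Bap1 KO tumours. It did not pass in any comparison.

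The remaining members are given by range. Among the alpha genes, Gnal (the olfactory-type Gs) ranged over 2.42 to 6.06 CPM in GNA11 Q209L Bap1 KO tumours, 3.88 to 8.53 CPM in GNA11 Q209L and 4.56 to 9.81 CPM in BRAF V600E Bap1 KO tumours. Gnaz, the gene of the Gz subunit, ranged over 3.58 to 8.95 CPM in GNA11 Q209L Bap1 KO tumours, 3.9 to 4.15 CPM in GNA11 Q209L and 0.579 to 5.53 CPM in BRAF V600E Bap1 KO tumours. Gnat2, a cone transducin, was at most 0.663 CPM in any library, and Gnat1, the rod transducin, had 5 counts in GNA11 Q209L Bap1 KO tumours, 4 in GNA11 Q209L and 16 in BRAF V600E Bap1 KO tumours. Gnb3 was at most 0.916 CPM. None of these alpha and beta genes passed in a comparison in edgeR. Gnaz was called in GNA11 Q209L Bap1 KO against BRAF V600E Bap1 KO tumours by DESeq2, by limma voom and without BRAF V600E Bap1 KO replicate 3. Gng11 ranged over 18.1 to 26.2 CPM in GNA11 Q209L Bap1 KO tumours, 49.8 to 62.7 CPM in GNA11 Q209L and 8.56 to 101 CPM in BRAF V600E Bap1 KO tumours. Every GNA11 Q209L Bap1 KO library lay below both GNA11 Q209L libraries (log2 fold change -1.38 ± 0.62 SE, adjusted p = 0.439). Without BRAF V600E Bap1 KO replicate 1, Gng11 passed in GNA11 Q209L Bap1 KO against BRAF V600E Bap1 KO tumours. Gng4 ranged over 11 to 24.6 CPM in GNA11 Q209L Bap1 KO tumours, 4.5 to 16.5 CPM in GNA11 Q209L and 2.3 to 11.7 CPM in BRAF V600E Bap1 KO tumours. Gng3 and Gng10 were at most 2.44 and 3.51 CPM, and 72% of the exon bases of Gng10 and 24.2% of those of Gng3 are shared with other genes.

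The R12 genes, 2 of which pair the RGS domain with a GoLoco motif that binds inactive Gi, did not pass in any comparison in edgeR with all libraries. Without BRAF V600E Bap1 KO replicate 1, Rgs12 passed in GNA11 Q209L Bap1 KO tumours and in GNA11 Q209L, each against BRAF V600E Bap1 KO tumours. Without GNA11 Q209L Bap1 KO replicate 2, Rgs14 passed in GNA11 Q209L Bap1 KO against BRAF V600E Bap1 KO tumours. Rgs10, known from microglia and other immune cells, ranged over 24.8 to 60.5 CPM in GNA11 Q209L Bap1 KO tumours, 14 to 59.6 CPM in GNA11 Q209L and 15 to 44.8 CPM in BRAF V600E Bap1 KO tumours. In GNA11 Q209L replicate 1 it stood at 59.6 CPM and the macrophage markers at 6456 CPM, and in replicate 2 Rgs10 stood at 14 CPM and the markers at 740 CPM. The most Rgs10 (60.5 CPM) was in GNA11 Q209L Bap1 KO replicate 4, with 389 CPM of these markers, and BRAF V600E Bap1 KO replicate 1 held 15 CPM of Rgs10 with 2397 CPM of them. Rgs12 ranged over 32.8 to 55.2 CPM in GNA11 Q209L Bap1 KO tumours, 25 to 32.7 CPM in GNA11 Q209L and 22 to 77.5 CPM in BRAF V600E Bap1 KO tumours. Rgs14 ranged over 1.35 to 18 CPM in GNA11 Q209L Bap1 KO tumours, 7.46 to 7.89 CPM in GNA11 Q209L and 7.57 to 11.4 CPM in BRAF V600E Bap1 KO tumours. Rgs14 was highest in GNA11 Q209L Bap1 KO replicate 2, and the GNA11 Q209L Bap1 KO mean of 5.99 CPM was 2.99 CPM without it. Rgs4, an R4 gene next to Rgs5 on chromosome 1, ranged over 1.16 to 5.77 CPM in GNA11 Q209L Bap1 KO tumours, 4.24 to 9.79 CPM in GNA11 Q209L and 2.64 to 6.68 CPM in BRAF V600E Bap1 KO tumours. The summed CPM of the 20 RGS genes was 235 to 487 in GNA11 Q209L Bap1 KO tumours, 201 and 667 in GNA11 Q209L and 420 to 706 in BRAF V600E Bap1 KO tumours.

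Genes of the pathway outside the symbol rule were counted from lists of 58 genes, of which 50 matched the table and 49 were tested. Between GNA11 Q209L Bap1 KO tumours and BRAF V600E Bap1 KO tumours 7 were higher and 10 lower, 34.7% of the 49 against 41.2% of all genes. Between GNA11 Q209L Bap1 KO tumours and GNA11 Q209L 0 were called by edgeR and 1 by DESeq2, and between GNA11 Q209L and BRAF V600E Bap1 KO tumours 5 were higher and 2 lower, 14.3% against 15.2% of all genes. Effectors of Gq moved both ways: Plcb4 was higher (255 ± 124 against 33.8 ± 43.5 CPM, log2 fold change 2.91 ± 0.86 SE, adjusted p = 0.0217) and Plcb1 lower (2.67 ± 0.819 against 15.6 ± 10.7 CPM, log2 fold change -2.54 ± 0.59 SE, adjusted p = 0.00811) in GNA11 Q209L Bap1 KO tumours than in BRAF V600E Bap1 KO tumours, and the other 5 genes of that list did not pass. Plcb4 and Plcb1 both encode phospholipase C beta enzymes. In GNA11 Q209L tumours Plcb4 averaged 20.3 ± 9.04 CPM, below the BRAF V600E Bap1 KO mean, and Plcb1 averaged 3.32 ± 3.44 CPM. Neither gene passed there against BRAF V600E Bap1 KO tumours (Plcb4 -0.74 ± 1.04 and Plcb1 -2.22 ± 0.83, log2 scale). Between GNA11 Q209L Bap1 KO tumours and GNA11 Q209L neither passed, though Plcb4 stood 3.65 ± 1.21 higher on that scale in the former.

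Of 9 adenylyl cyclase genes, which answer to Gs and Gi, 3 were higher and 3 lower in GNA11 Q209L Bap1 KO tumours than in BRAF V600E Bap1 KO tumours. The genes with the smallest p were Adcy7 (783 ± 169 against 118 ± 22.1 CPM, log2 fold change 2.72 ± 0.39 SE, adjusted p = 0.00102), Adcy9 (80.1 ± 26.9 against 9.28 ± 4.78 CPM, log2 fold change 3.11 ± 0.45 SE, adjusted p = 0.00106) and Adcy6 (87.9 ± 8.89 against 149 ± 32.4 CPM, log2 fold change -0.77 ± 0.18 SE, adjusted p = 0.00928). The others called were Adcy3 higher and Adcy5 and Adcy8 lower. Of 9 chaperones, exchange factors and GoLoco proteins, Gpsm3, which binds inactive Gi, was higher (73.9 ± 23.7 against 13.9 ± 6.05 CPM, log2 fold change 2.41 ± 0.35 SE, adjusted p = 0.00102), and Gpsm2 (15.2 ± 5.46 against 52.9 ± 10.5 CPM, log2 fold change -1.8 ± 0.3 SE, adjusted p = 0.00193) and Ccdc88c (7.28 ± 2.29 against 29.2 ± 8.77 CPM, log2 fold change -2 ± 0.41 SE, adjusted p = 0.00499) were lower. Among 7 receptor kinases and arrestins, Adrbk2 and Arrb2 were lower and 0 higher, with Arrb2 at 25.1 ± 5.5 against 62.5 ± 35.7 CPM, log2 fold change -1.32 ± 0.39 SE, adjusted p = 0.0211. Pik3cg and Prex1, which beta-gamma dimers activate, were lower out of 4 tested, and 0 of the 7 further G gamma and RGS domain genes passed. In GNA11 Q209L against BRAF V600E Bap1 KO tumours, Gpsm3, Arrb1, Adcy7 and Adcy9 were among the higher genes, and Gpsm2 and Adcy6 were lower.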

How the data were processed

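RNA sequencing of 11 skin tumours was deposited as a table of estimated counts per gene, made by the authors without normalisation. Libraries were made from total RNA (1 ug) with Illumina's usual procedure, per the labels' protocols. STAR and mm9 are named in the submitters' processing notes. Not given in the sources used here are the counting program, annotation, strand setting and handling of reads that overlap several genes or match the human transgene. Expected counts were whole in every library, so rounding changed nothing. Of 18769 lines with an ID, 7 repeats and 6 transgene sequences stayed out of the totals and the tests, which left 18756 genes.

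Counts were fitted with edgeR 4.0.16 (R 4.3.3), using TMM scaling, the default expression filter by genotype, all 11 libraries in 1 quasi-likelihood fit, and two-sided tests with Benjamini-Hochberg adjustment over 17350 genes at a threshold of 0.05. The script was tested on simulated data. CPM is TMM-scaled. SE is the log2 fold change divided by the root of its F statistic. A count of 3 equals 0.0337 to 0.166 CPM in a library, and counting intervals (95%, exact Poisson) cover counting error only. Alternatives were DESeq2 1.42.0, limma voom (limma 3.58.1), RLE scaling, no filter, Xist above 50 CPM as a covariate, fits of 2 genotypes, summing the libraries that share an identifier, adding the human counts to Gna11, and leaving out each library. Transcript lengths, exon overlap and codon windows come from GENCODE and promoters from RefSeq (GRCm38.p6), whose build differs from that of the counts, so no position is tied to a count. All 49 IDs matched GENCODE names.

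Values in every library are given for 20 key members, for up to 10 members each way with the largest change in GNA11 Q209L Bap1 KO against BRAF V600E Bap1 KO, up to 5 each way in GNA11 Q209L against BRAF V600E Bap1 KO (called, average log2 CPM 0 or more), and for the 6 smallest p in GNA11 Q209L Bap1 KO against GNA11 Q209L. Of the pathway lists, up to 3 genes with the smallest p are given with values. A further pathway list enters the totals and is not reported here by gene. The members, lists and markers were chosen with earlier results of these data known.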

Additional observations from a re-analysis of the deposited data

Results flagged for a closer look

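In 5 cases a single library stood far from the others of its genotype, among 68 combinations of a member given by library and a genotype of 4 or 5 libraries, where chance alone flags about 1 in 20. Gna11 was at 188 CPM in BRAF V600E Bap1 KO replicate 1, against 73.6 to 88.4 CPM in the other libraries of the genotype. GNA11 Q209L Bap1 KO replicate 4 held 280 CPM of Gnb4, where the others held 121 to 145 CPM. Rgs1 was at 166 CPM in BRAF V600E Bap1 KO replicate 2, against 1.31 to 5.72 CPM in the others. GNA11 Q209L Bap1 KO replicate 5 held 41.1 CPM of Rgs9, where the others held 0.166 to 6.76 CPM. Rgs9bp, on few counts, was at 0.286 CPM in replicate 4 of the same genotype and at most 0.0691 CPM in the others.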

How the results depend on the processing

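The 34 members given by library were refitted under each alternative in all 3 comparisons, 102 log2 fold changes in all. Of 1935 refitted values 1777 kept direction and side of the threshold, 75 lost the call, 35 gained one and 48 changed sign. Those 48 belonged to 28 of the 102 log2 fold changes, and 1 of the 28 was a call, that of Rgs1 in GNA11 Q209L Bap1 KO against BRAF V600E Bap1 KO. The cause of each change below was not tested, other than having fewer libraries in a fit.

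In GNA11 Q209L Bap1 KO against GNA11 Q209L, DESeq2 called 452 of 18742 genes and the fit of these genotypes alone 64 of 15177. DESeq2 called 1 member higher, 2 lower and 1 pathway gene, and the fit of these genotypes alone called 1 member lower. These counts were 0 under the other settings run, leaving out any 1 library included. The log2 fold change of Gna11 was -0.13 with the human counts added. Leaving out 1 library gave -0.46 to 1.3 for Gna11, -0.35 to 0.65 for Gnb5 and -1.18 to 0.37 for Rgs2.

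In GNA11 Q209L Bap1 KO against BRAF V600E Bap1 KO, DESeq2 called 14 members higher, and 8229 of 18742 genes in all. Leaving out BRAF V600E Bap1 KO replicates 2 and 4, chosen after seeing the data, left 2 higher and 10 pathway genes. That fit called 3571 of 16254 genes. Leaving out 1 library gave 5 to 10 members higher, the lowest without BRAF V600E Bap1 KO replicate 4. Log2 fold changes then ran over -0.2 to 0.03 for Gng5, -4.01 to 0.09 for Rgs1, -0.73 to 0.11 for Rgs16 and -1.53 to 0.01 for Rgs5.

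In GNA11 Q209L against BRAF V600E Bap1 KO, DESeq2 called 5 members higher, 7 lower and 11 pathway genes, and 5459 of 18742 genes in all. The Xist covariate gave 1 higher. The fit of these genotypes alone gave 1 higher, 0 lower and 2 pathway genes, and without BRAF V600E Bap1 KO replicates 2 and 4 there were 1 higher and 4 pathway genes. Over all genes these settings called 1168 of 17350, 417 of 17015 and 838 of 16254, in that order. Leaving out 1 library gave 0 to 5 members higher, 0 to 4 lower and 1 to 7 pathway genes.

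No paired analysis was possible because the titles give no replicate numbers shared between genotypes. With 2 GNA11 Q209L libraries, a fit without one of them assumes that the lone library varies like the other genotypes, and small differences from this genotype were not detectable at this size. Members under 1 CPM rest on few counts.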
